A study of Mus musculus with 8 samples.

Results

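The Schlafen genes are a family of immune genes that lie side by side on mouse chromosome 11. The 7 members described here, Slfn1, Slfn2, Slfn3, Slfn4, Slfn5, Slfn8 and Slfn9, were taken by symbol from a table of 55414 genes measured in macrophages of mouse skin wounds. The family was selected on the measured fall of Slfn4 between day 1 and day 3 after injury, so the values of Slfn4 in this comparison are given as a description without a test, and the other members were taken by their family name. All 7 members passed the filter on low counts that left 15371 genes, and 6 of the 7, all but Slfn3, also passed a stricter one.

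RNA was sequenced in bulk from macrophages isolated 3 days after injury (5 libraries, a to e) and 1 day after injury (3 libraries, a to c). Each library of both days came from 6 wounds of 3 mice that were pooled, and cells were taken from collagenase-digested wound bed with magnetic beads that bind F4/80, a surface protein of mouse macrophages (gene Adgre1). No genotype, strain, age or treatment beyond wounding is stated in the labels. F4/80 selection can also carry along other cells, and whether pools shared mice is not stated in the labels. The p-values therefore reflect the variation among these pools.

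Library totals ran from 50515389 to 56661695 counts at day 3 and from 41566151 to 60289310 at day 1. The day 3 libraries held a count for 14952 to 20557 genes and the day 1 libraries for 23928 to 27315. All 10 macrophage markers examined were detected, and their summed level was 31453 ± 2784 CPM at day 3 and 18097 ± 1470 CPM at day 1 (SD, n = 5 and 3; CPM is the count relative to the scaled library total). The summed level of 9 inflammatory monocyte markers was 4755 to 8765 CPM at day 3 and 8945 to 10780.2 CPM at day 1. The summed level of 12 neutrophil markers was 451 to 680 CPM in 4 of the 5 day 3 libraries and 3773 CPM in day 3 b, against 849 CPM in day 1 a, 2274 CPM in day 1 b and 4021 CPM in day 1 c. Summed markers of other skin cells were low. The 6 fibroblast markers summed to 56.03 to 118.9 CPM at day 3 and 9.49 to 37.7 CPM at day 1. The 5 endothelial markers summed to 13.1 to 27.1 CPM at day 3, mostly Pecam1, and to 28.8 to 68.7 CPM at day 1. For both sums the day ranges were apart, but neither passed after adjustment (exact permutation test over samples, adjusted p = 0.0893). The part of other cells in the Schlafen values was not tested.

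Schlafen genes are induced in mouse macrophages and other immune cells by interferons and by ligands of Toll-like receptors, and several members restrain proliferation or virus growth. Mouse members fall into a short group (Slfn1, Slfn2), an intermediate group (Slfn3, Slfn4) and a long group with a C-terminal helicase-like region (Slfn5, Slfn8, Slfn9). In mouse macrophages Slfn4 is known as a strongly induced gene of early activation that is reduced as monocytes mature, and in mouse stomach it marks myeloid cells of the inflamed mucosa.

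The members lie within 263.8 kb of chromosome 11 in the GRCm39 coordinates of the deposited table. In order along the chromosome, Slfn5 lies at chr11:82842175-82855666 on the plus strand, and Slfn9 (chr11:82869216-82882656) and Slfn8 (chr11:82892984-82911636) lie on the minus strand. Slfn2 (chr11:82955938-82961504), Slfn1 (chr11:83007675-83013496), Slfn4 (chr11:83066012-83081042) and Slfn3 (chr11:83082156-83105980) follow on the plus strand.

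The 250 bases in front of the annotated start are shown for 4 members because their matches to the core of the interferon response element differ. The sequences are those of RefSeq on GRCm38.p6, a build other than that of the counts, and all 7 members had an entry. Slfn4 was read at chr11:83174936-83175185 on the plus strand and Slfn5 at chr11:82951852-82952101 on the plus strand. Slfn8 was read at chr11:83020811-83021060 on the minus strand, for the first of its 2 listed starts, and Slfn9 at chr11:82991831-82992080 on the minus strand. Each is written 5′ to 3′ on the strand of its gene, and capitals mark a match on either strand to the element's core, which was searched as GAAA, any 2 bases and GAAA.
Slfn4: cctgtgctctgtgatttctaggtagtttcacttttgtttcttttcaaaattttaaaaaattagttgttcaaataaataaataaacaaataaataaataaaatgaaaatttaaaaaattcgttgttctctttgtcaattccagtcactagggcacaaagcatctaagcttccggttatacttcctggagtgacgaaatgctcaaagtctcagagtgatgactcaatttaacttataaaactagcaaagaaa
Slfn8: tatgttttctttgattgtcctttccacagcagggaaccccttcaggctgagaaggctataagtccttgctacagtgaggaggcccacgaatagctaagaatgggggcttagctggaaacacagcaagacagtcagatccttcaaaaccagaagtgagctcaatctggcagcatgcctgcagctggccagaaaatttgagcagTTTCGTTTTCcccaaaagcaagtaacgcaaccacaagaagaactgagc
Slfn9: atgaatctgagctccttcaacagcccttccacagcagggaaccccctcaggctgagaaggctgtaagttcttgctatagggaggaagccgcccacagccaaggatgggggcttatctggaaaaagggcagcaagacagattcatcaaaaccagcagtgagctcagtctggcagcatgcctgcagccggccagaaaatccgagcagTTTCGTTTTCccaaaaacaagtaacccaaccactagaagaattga
Slfn5: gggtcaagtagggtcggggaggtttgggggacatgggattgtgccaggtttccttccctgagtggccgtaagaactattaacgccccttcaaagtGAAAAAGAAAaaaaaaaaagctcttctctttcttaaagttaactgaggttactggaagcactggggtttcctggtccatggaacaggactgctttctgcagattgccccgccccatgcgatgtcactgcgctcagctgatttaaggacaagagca

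The match in Slfn5 covered bases -155 to -146 before the start, reading GAAAAAGAAA. In Slfn9 it covered -45 to -36 and in Slfn8 -48 to -39, both reading TTTCGTTTTC, which is the motif on the other strand. No match was found in the windows of Slfn1, Slfn2, Slfn3 and Slfn4, and TTCNNNGAA, the gamma-activated site, searched on both strands, had no match in any of the 7. Over 32851 RefSeq promoter windows of the same length (250 bases before to 50 after the start), 3.44% held the response element core and 8.30% held TTCNNNGAA. The Slfn8 and Slfn9 windows were 80.2% identical over the 250 bases, and the other 20 pairs of members were 45.5% to 53.4% identical.

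Slfn4, an intermediate member, was far less abundant in day 3 than in day 1 macrophages. It stood at 163, 231, 224, 195 and 197 CPM in day 3 libraries a to e, against 890.2, 795 and 564 CPM in day 1 libraries a to c. The lowest day 1 library was well above the highest day 3 library. The mean was 202 ± 26.9 CPM at day 3 and 749.7 ± 168 CPM at day 1 (SD, n = 5 and 3), which puts day 3 at 26.9% of day 1. The edgeR log2 fold change was -1.89 ± 0.19 (SE), against a median of -0.17 over all genes tested. Of the members, Slfn4 had the smallest spread between day 3 libraries, with a coefficient of variation of 13.3% and a highest level 1.42 times the lowest. In a bulk sample, fewer cells of a type and less RNA per cell cannot be told apart.

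At day 1 the Slfn4 level was highest in library a, then b, then c, which was also the order of the summed interferon-induced genes (21219, 15282 and 11769 CPM). The summed neutrophil markers ran the other way at day 1. At day 3 the Slfn4 level was highest in library b, which also had the highest neutrophil and inflammatory monocyte marker sums, and the fold change without that library was -1.94. The part of monocyte markers in the level of Slfn4 was not tested.

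Slfn3, the other intermediate member, which adjoins Slfn4 and has been studied mainly in T cells and rodent gut epithelium, was the least abundant member and varied widely between libraries of the same day. Its levels were 4.23, 1.75, 0.0590, 3.46 and 0.229 CPM in day 3 libraries a to e, against 1.61, 0.284 and 2.31 CPM in day 1 libraries a to c. Day 3 c held 3 Slfn3 counts, which is the floor used here, and day 3 e and day 1 b held 12 and 17, while the other five libraries held 64 to 223. The days overlapped fully, and the log2 fold change of 0.47 ± 1.404 did not pass the test (edgeR adjusted p = 0.919). The value was -0.03 without day 3 a, so no direction can be read for Slfn3. Of all stretches of 50 bases in Slfn3 transcripts, 15.99% also occurred in another gene's transcripts, most often those of Slfn4 (7.39%).

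**Figure D1:**
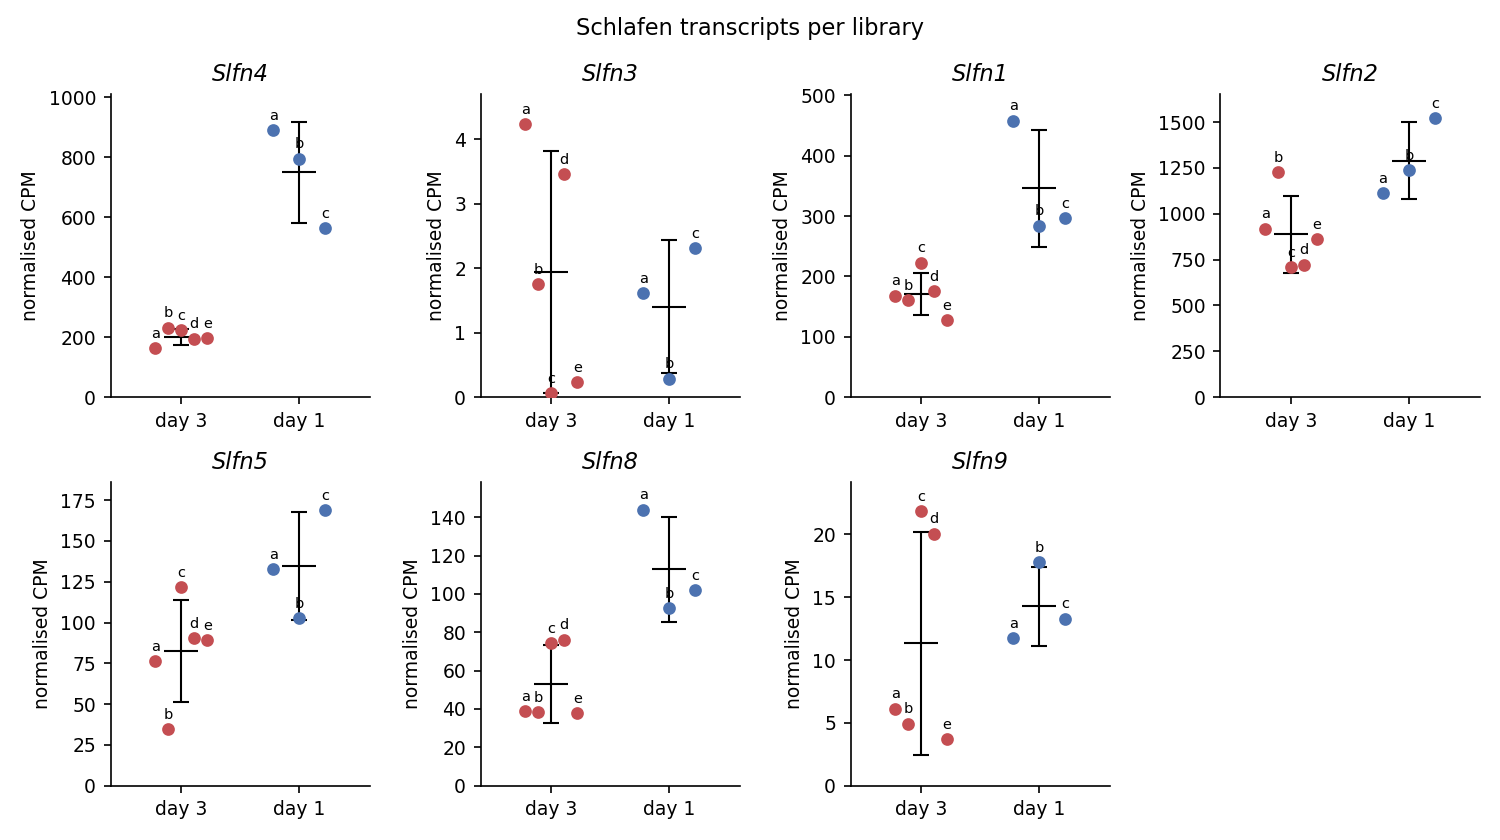
Normalised CPM of each Schlafen member by library (letters), with day 3 (red) left of day 1 (blue); bars show the mean and 1 SD over 5 and 3 libraries, and each panel has its own axis starting at 0. Slfn4 lies between 163 and 231 CPM at day 3, below every day 1 library, while Slfn9 and Slfn3 overlap between the days.

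Of the short members, Slfn1, the first Schlafen gene described in mouse and known for slowing the growth of thymocytes when overexpressed, was lower in every day 3 library than in any day 1 library. Slfn1 stood at 168, 161, 223, 176 and 127 CPM in day 3 libraries a to e, against 458, 284 and 296 CPM in day 1 libraries a to c. At day 1 library a was well above the other two, and at day 3 library c was the highest. The mean was 171 ± 34.4 CPM at day 3 and 346 ± 97.1 CPM at day 1, and the log2 fold change was -1.02 ± 0.22. Slfn1 missed the threshold of 0.05 in the edgeR quasi-likelihood test (adjusted p = 0.0829) and with the stricter filter (adjusted p = 0.0523). It passed with DESeq2 (adjusted p = 0.00270) and with limma voom (adjusted p = 0.0275). With no filter on low counts edgeR called it as well (adjusted p = 0.00158).

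Slfn2, a short member needed in mouse for the quiescence and survival of T cells and monocytes and known to protect tRNA from cleavage, was the most abundant Schlafen transcript. It stood at 918, 1225, 710.2, 723 and 861 CPM in day 3 libraries a to e, against 1111, 1237 and 1520.25 CPM in day 1 libraries a to c. Day 3 b lay inside the day 1 range and the other 4 day 3 libraries lay below it. The mean was 888 ± 209 CPM at day 3 and 1289.5 ± 209 CPM at day 1, and the log2 fold change of -0.54 ± 0.21 did not pass the test (edgeR adjusted p = 0.243).

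Within each day, Slfn2 ranked the libraries exactly as the summed neutrophil markers did. At day 3 both ran b, a, e, d, c from high to low, and at day 1 both ran c, b, a. S100a8, an abundant granulocyte transcript, was at 115 to 1773 CPM at day 3 and at 259 to 1522 CPM at day 1. Ly6g, the defining surface marker of mouse neutrophils, reached 6.83 CPM at day 3 and 6.81 CPM at day 1 and had no count in day 3 d. Without day 3 b the Slfn2 log2 fold change was -0.68 (edgeR adjusted p = 0.102). The part of neutrophil RNA in the Slfn2 values was not tested.

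Of the long members, Slfn8 was lower in every day 3 library than in any day 1 library. Its levels were 38.8, 38.2, 74.4, 76.2 and 37.9 CPM in day 3 libraries a to e, against 144, 92.6 and 102 CPM in day 1 libraries a to c. At day 3, libraries c and d were well above the other three. The mean was 53.1 ± 20.3 CPM at day 3 and 113 ± 27.3 CPM at day 1, and the log2 fold change was -1.09 ± 0.31. It did not pass the edgeR test (adjusted p = 0.109), nor with the stricter filter (adjusted p = 0.0866) or limma voom (adjusted p = 0.0565). It passed with DESeq2 (adjusted p = 0.0282) and in edgeR with no filter on low counts (adjusted p = 0.0190).

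Slfn5, a nuclear member known for repressing transcription of interferon-stimulated genes in human cells, stood at 76.4, 34.7, 122, 90.4 and 89.3 CPM in day 3 libraries a to e. In day 1 libraries a to c it was at 133, 103 and 169 CPM. Only day 3 c reached into the day 1 range, and day 3 b was the lowest of all. The mean was 82.5 ± 31.5 CPM at day 3 and 135 ± 33.2 CPM at day 1, and the log2 fold change of -0.71 ± 0.34 did not pass the test (edgeR adjusted p = 0.362). Of its 6326 exon bases, 559 overlap the antisense gene Slfn5os on the other strand, and bases that both share were not separable without strand; Slfn5os itself had at most 9 counts in any library.

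Slfn9, close kin of Slfn8, was at 6.11, 4.92, 21.8, 20.04 and 3.68 CPM in day 3 libraries a to e, against 11.8, 17.8 and 13.3 CPM in day 1 libraries a to c. Day 3 c and d lay above all day 1 libraries and the other three day 3 libraries lay below them. Its mean was 11.3 ± 8.85 CPM at day 3 and 14.3 ± 3.14 CPM at day 1, and the log2 fold change of -0.34 ± 0.64 did not pass the test (edgeR adjusted p = 0.868). Among 50-base stretches, 11.9% of those of Slfn9 and 14.6% of those of Slfn8 also occurred in another gene's transcripts, mostly the pseudogene Slfn10-ps and each other. Reads there could map equally well to another copy, so the ratio of Slfn8 to Slfn9 is uncertain.

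Slfn1, Slfn5, Slfn8 and Slfn9 had their 2 highest day 3 levels in libraries c and d. These libraries also had the highest sums of 40 interferon-induced genes at day 3, 10204 CPM in c and 9560.3 CPM in d. The other libraries of that day had 6110.4 to 9302 CPM. Summed fibroblast and summed endothelial markers were likewise highest in c and then d at day 3. Slfn4 did not follow that order at day 3: its second highest level was in c and its second lowest in d. With 5 libraries these orders are a description, and what set them was not tested.

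**Figure D2:**
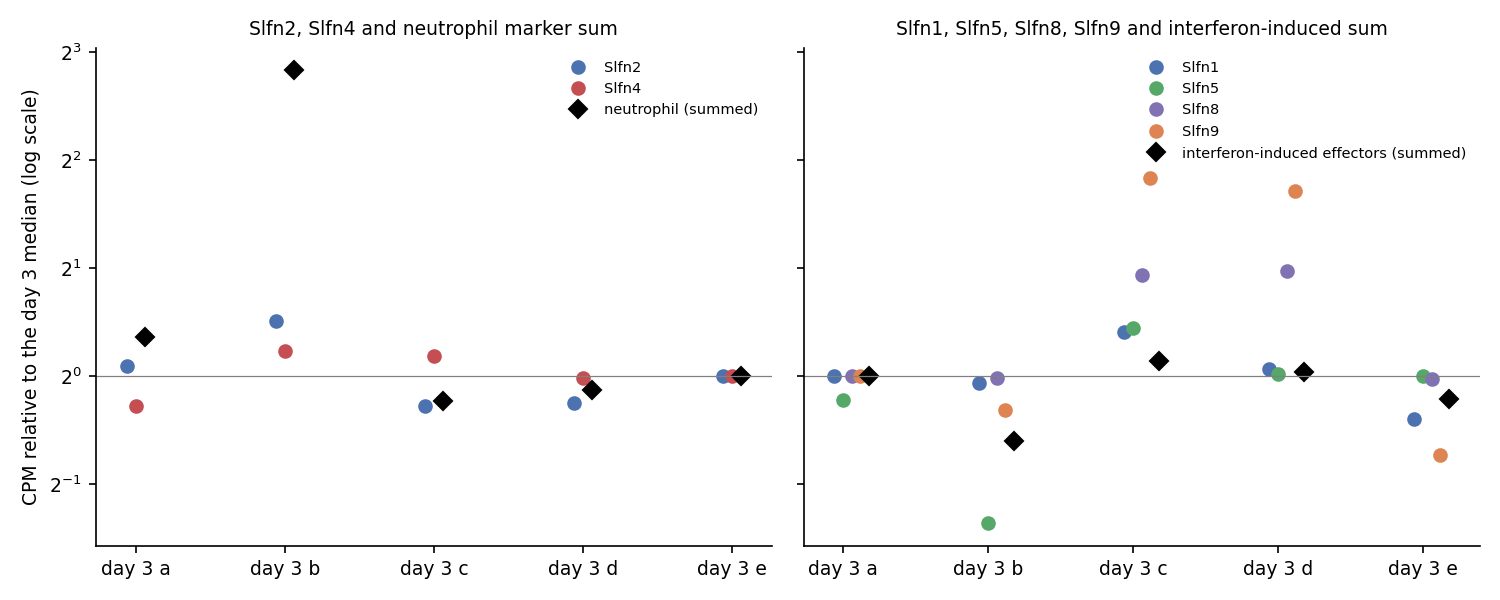
Normalised CPM in the 5 day 3 libraries relative to each item's day 3 median, on a log2 axis; black diamonds are the summed markers or genes named in the legend. Slfn2 and the neutrophil sum are both highest in day 3 b (left), and Slfn8 and Slfn9 are high in day 3 c and d (right).

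By the edgeR test with Benjamini-Hochberg adjustment over all genes, 2 of 15371 genes were called between the days (0.0130%). Slfn4 is left out of the counts of members that follow, since its fall chose the family, and none of the 6 other members was called by edgeR. Leaving out 1 library moved the number of genes called to 59 (day 1 b), 31 (day 3 b) or 1 (day 1 c), and to 0 without day 1 a and without any of day 3 a, c, d and e. At an unadjusted p under 0.05, 10.5% of genes were lower at day 3, and of the 6 other members Slfn1, Slfn2 and Slfn8 were. DESeq2 called Slfn1 and Slfn8 lower (4.22% of all genes), and limma voom Slfn1 (4.40% of all genes). The day ranges did not overlap, with day 3 lower, for 8.76% of genes and, of the 6, for Slfn1 and Slfn8. Leaving out day 3 b or day 1 a added Slfn2 to these, and leaving out day 3 c or day 1 b added Slfn5, while the share of all genes rose to between 9.93% and 14.2% in those cases. A log2 fold change below 0 was found for 57.1% of all genes and for 5 of the 6 other members. None of these counts is read as particular to the family.

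**Figure D3:**
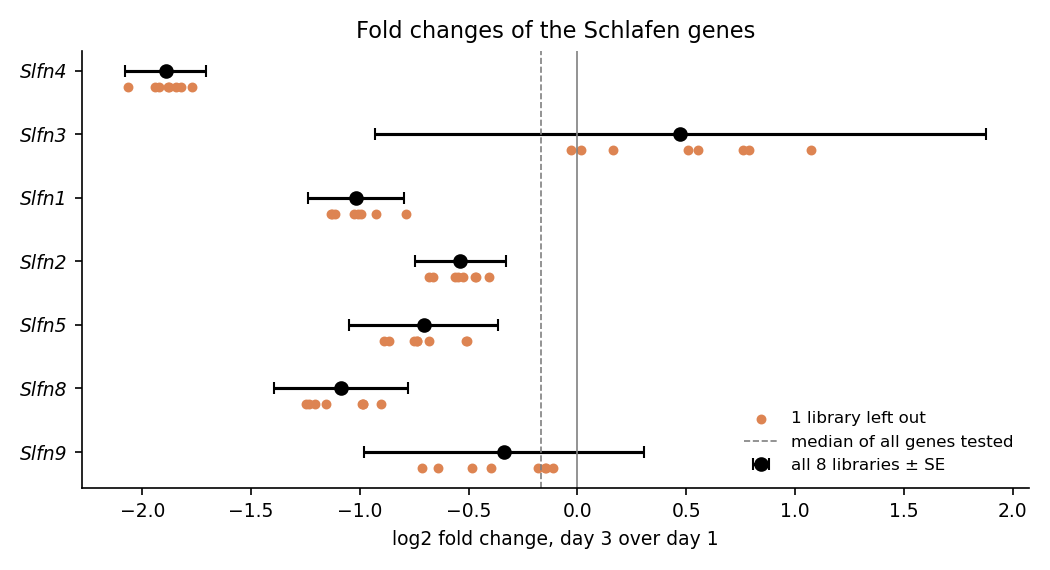
Log2 fold change of each Schlafen member, day 3 over day 1, from edgeR on all 8 libraries (black, ± 1 SE) and with each library left out (orange); the dashed line is the median of all genes tested, -0.17. Slfn4 stays between -2.06 and -1.77, and Slfn3 lies on both sides of 0.

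Per kilobase of exon (RPKM, the scaled CPM per kilobase), Slfn2 was the highest member at both days, with a mean of 533 RPKM at day 3 and 775 RPKM at day 1. At day 3 it was followed by Slfn1 (91.8 RPKM) and Slfn4 (51.0 RPKM), whose ranges did not overlap, and then by Slfn5 (13.0 RPKM) and Slfn8 (13.0 RPKM), whose ranges did. Slfn9 (1.90 RPKM) and Slfn3 (0.570 RPKM) came last at day 3 with overlapping ranges. At day 1 Slfn4 (189 RPKM) and Slfn1 (186 RPKM) shared the second place: their ranges overlapped, and Slfn4 was the higher of the pair in 1 of 3 libraries. Slfn8 (27.6 RPKM) and Slfn5 (21.3 RPKM) overlapped as well at day 1, ahead of Slfn9 (2.40 RPKM) and Slfn3 (0.411 RPKM), which did not overlap.

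Within the family, the balance between Slfn4 and the short members differed between the days. The ratio of Slfn4 to Slfn1 on the RPKM scale was 0.455 to 0.728 at day 3 and 0.895 to 1.31 at day 1. The ratio of Slfn4 to Slfn2 was 0.0744 to 0.132 at day 3 and 0.156 to 0.336 at day 1. In both cases the ranges were apart. Slfn4 made up 7.32% ± 1.18 of the summed RPKM of the 7 members at day 3 and 15.9% ± 4.07 at day 1, and Slfn2 made up 75.1% ± 6.46 at day 3 and 64.4% ± 8.13 at day 1. These ratios use the Slfn4 values that chose the family and are therefore given without a test. Of all stretches of 50 bases in Slfn4 transcripts, 11.3% also occurred in another gene's transcripts, most often those of Slfn3 (6.28%). Reads there could map equally well to another copy, which adds uncertainty to the levels and ratios of Slfn4. The summed RPKM of the 7 members was 705 ± 113 at day 3 and 1202 ± 65.6 at day 1.

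**Figure D4:**
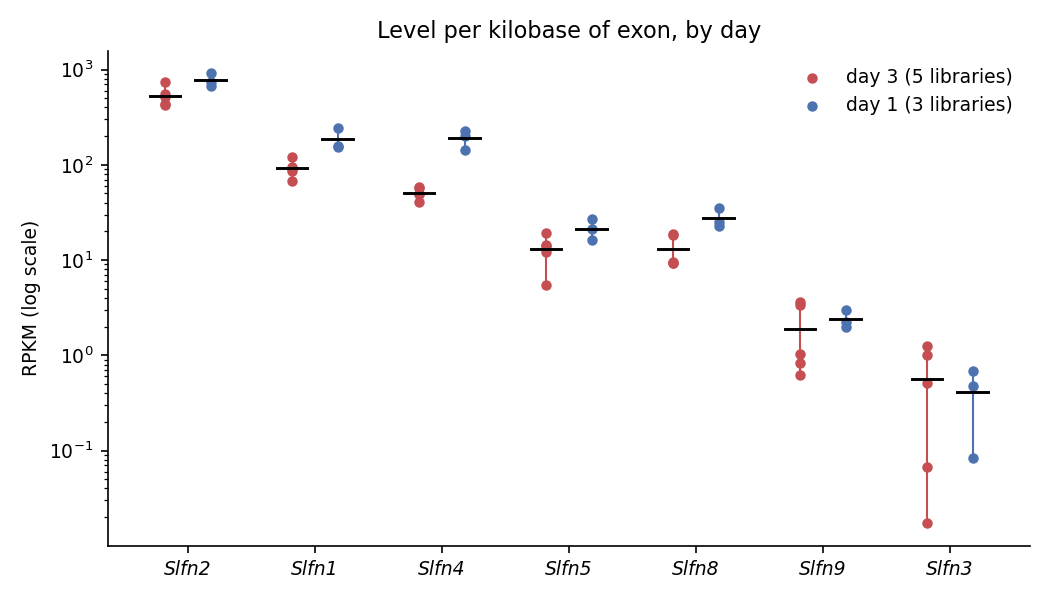
RPKM of the 7 members on a log10 axis, with day 3 (red, 5 libraries) left of day 1 (blue, 3 libraries); points are libraries, vertical lines the range and black bars the mean. Slfn4 has 51.0 RPKM at day 3 and 189 RPKM at day 1, below Slfn1 at day 3 and level with it at day 1.

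Of 4 further genes with a Schlafen symbol, only the pseudogene Slfn10-ps was tested. It averaged 21.5 ± 6.00 CPM at day 3 and 37.8 ± 13.2 CPM at day 1, and its log2 fold change was -0.81 ± 0.34 (edgeR adjusted p = 0.279). Slfn14, Slfn5os and Slfnl1 had at most 9 counts in any library.

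Genes next to the cluster gave the local setting. Of 14 protein-coding neighbours within 250 kb of the outermost members, 10 were tested and 7 had a log2 fold change below 0 (57.1% of all genes). No neighbour was called by edgeR, DESeq2 or limma voom. At an unadjusted edgeR p under 0.05 there was 1 neighbour (15.7% of all genes in either direction), and these counts are not read as particular to the locus. That gene, Ap2b1, a subunit of the clathrin adaptor, was at 28.1 ± 6.79 CPM at day 3 and 47.9 ± 17.6 CPM at day 1, and its log2 fold change was -0.77 ± 0.31 (edgeR adjusted p = 0.267). On the side of Slfn5, the ubiquitin ligase Rffl had -1.001 ± 0.47, the recombination factor Rad51d -1.42 ± 0.71 and the ribosome biogenesis factor Nle1 -2.68 ± 1.62 on the log2 scale. Zfp830 had 0.16 ± 0.32, the DNA ligase Lig3 0.02 ± 1.21, Cct6b 1.03 ± 2.40 and Unc45b -0.00 ± 2.26. On the side of Slfn3, 1700020L24Rik had -1.33 ± 1.70. Fndc8, Rasl10b, Gas2l2 and Mmp28 did not pass the filter on low counts.

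Because Schlafen genes respond to interferon, the genes of that pathway were examined in order from ligand to effector. Of 21 interferon ligand genes, 13 had no count in any library and only Ifnb1, interferon beta, was tested. Ifnb1 was at 5.35, 2.44, 1.42, 1.07 and 1.01 CPM in day 3 libraries a to e, against 0, 9.41 and 0.874 CPM in day 1 libraries a to c. These ranges overlapped fully, and the log2 fold change of -0.60 ± 1.51 did not pass the test (edgeR adjusted p = 0.904). Of the other ligand genes, Ifnab, Ifna16 and Ifna13 averaged at most 0.231 CPM on either day.

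All 30 receptor, signalling and sensing genes were tested, with no edgeR call. With p under 0.05 before adjustment there were 8 lower and 1 higher at day 3, in a background of 15.7% of all genes in either direction. DESeq2 called 6 lower and 1 higher (6.64% of all genes in either direction), and limma voom 2 lower and 1 higher (5.37% of all genes). Their median log2 fold change was -0.45, against -0.17 over all genes. Ifngr1, a chain of the interferon gamma receptor, averaged 686 ± 102 CPM at day 3 and 372 ± 92.4 CPM at day 1 (log2 fold change 0.88 ± 0.21, edgeR adjusted p = 0.0829). Irf7, the transcription factor that amplifies type I interferon signals, averaged 322 ± 86.5 CPM at day 3 and 876 ± 211 CPM at day 1 (log2 fold change -1.44 ± 0.25, edgeR adjusted p = 0.0630). Ifnar1 and Ifngr2, chains of the type I and the gamma receptor, had log2 fold changes of -0.61 ± 0.23 and -0.25 ± 0.14.

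The 40 interferon-induced effector genes were all tested, and all 40 had a log2 fold change below 0, with a median of -0.95 against -0.17 over all genes. edgeR called none of them, whereas with no filter on low counts it called 27 lower (2.95% of all genes) and with the stricter filter 6 (1.02% of all genes). At an unadjusted p under 0.05, 30 were lower at day 3 (10.5% of all genes and 17.7% of the 2320 genes with an average log2 CPM of 6 or more). DESeq2 called 24 lower (4.22% of all genes) and limma voom 14 (4.40% of all genes). The ranges of 22 did not overlap, with day 3 lower (8.76% of all genes and 11.2% of those more abundant genes). Without day 1 a, which had the highest sum of these genes, 39 of the 40 had a log2 fold change below 0, 24 of them at an unadjusted p under 0.05, and the median was -0.69. Of the 4 most abundant, Rsad2, the antiviral enzyme viperin, averaged 389 ± 113 CPM at day 3 and 1080.0 ± 296 CPM at day 1 (log2 fold change -1.47 ± 0.27). Ifi204, a DNA sensor, had -0.97 ± 0.24, Samhd1, a dNTP hydrolase, -0.79 ± 0.21 and Ifitm3, which restricts virus entry, -0.58 ± 0.18. The summed level of the 40 genes was 6110.4 to 10204 CPM at day 3 and 11769 to 21219 CPM at day 1. In the exact two-sided permutation test over samples, this sum and 5 others (receptors and signalling, macrophage, inflammatory monocyte, fibroblast and endothelial) gave p = 0.0357, the smallest that 8 libraries allow and the one that any complete separation of the days reaches. None of the 15 sums passed after adjustment (0.0893 for these 6).

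Gli1, the Hedgehog transcription factor that acts upstream of Slfn4 in mouse stomach, was near or below the floor of 3 counts, with a mean of 0.0114 CPM at day 3 and 0.0613 CPM at day 1. Of 8 Hedgehog genes 3 were tested, and none had an edgeR p under 0.05, adjusted or not, or a call by DESeq2 or limma voom. The receptor Ptch1 averaged 0.393 CPM at day 3 and 1.08 CPM at day 1, and Sufu, which holds Gli proteins inactive, 2.09 CPM at day 3 and 2.78 CPM at day 1. Smo and Gli3 averaged under 0.4 CPM on either day. No difference in Hedgehog genes was detected. Gli1 was too near the floor for one to be read, and Sufu ran from 0.0503 to 7.10 CPM between day 1 libraries.

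The 8 genes whose profile over the 8 libraries was most like that of Slfn4 were found among 4943 genes by the root mean square difference of centred log2(CPM + 1) values. The closest was Tinf2, a component of the telomere-binding shelterin complex, at a distance of 0.245. Its levels were 13.6, 14.8, 17.6, 11.4 and 16.1 CPM in day 3 libraries a to e, against 47.9, 54.9 and 49.7 CPM in day 1 libraries a to c. Next were Ccnd2, a D-type cyclin (0.284), Uba7, the enzyme that activates ISG15 (0.339), and Hyal2, a hyaluronidase (0.343). Car13, a carbonic anhydrase (0.347), Carhsp1, an RNA-binding protein (0.375), Helz2, a helicase and transcriptional coactivator (0.385), and the lectin Lgals9 (0.400) followed. Log2 fold changes of the 8 genes ran from -1.79 (Tinf2) to -1.23 (Lgals9). None of them is among the 40 interferon-induced genes above. That list is a selection, so absence from it does not show that a gene is not induced by interferon. The closest Schlafen genes would have ranked 43 (Slfn1, 0.499) and 69 (Slfn8, 0.537), whereas the median distance was 0.991 and that of Slfn9 0.988. This measure of likeness is a description, since Slfn4 differed between the days by choice.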

How the data were processed

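Bulk RNA-seq libraries of F4/80-selected wound macrophages were analysed from 5 day 3 and 3 day 1 pools; the labels' protocols state 6 samples per time point. The authors deposited raw counts per gene. Per the file headers, they were made with featureCounts 1.6.0 on Ensembl release 106 (GRCm39), with no option for strand, read pairs or multiply mapped reads. Of counts from 2 to 20, 73.0% to 86.0% were even per library, and both mates of a pair may have been counted. Trimmomatic and DESeq2 are named without versions in the submitters' processing notes; an aligner is not named in the sources used here. Letters in the header partly differ from those of the columns and served as names only.

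Symbols matched 52081 of 55414 genes (94%). Genes passing filterByExpr (minimum count 10) were scaled by TMM. The test was edgeR's quasi-likelihood test (two-sided), with p-values adjusted by Benjamini-Hochberg over 15371 genes and a threshold of 0.05. CPM uses the scaled total over tested genes, and RPKM divides it by merged exon length in kb. The floor of 3 counts is 0.0501 to 0.0755 CPM, for counting error only. Log2 fold changes are day 3 over day 1. The SE given with each was derived as its absolute value divided by the square root of the quasi-likelihood F statistic. Sequence sharing between genes was counted on GENCODE transcripts of GRCm38.

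Genes named were the members, other Schlafen symbols, coding neighbours within 250 kb, the called or else 4 most abundant genes of each pathway list, and the 8 genes most like Slfn4 with a mean of at least 20 CPM. 1 item that this rule names is not reported here. S100a8, Ly6g and Adgre1 were named from the marker lists. Members and lists were chosen with earlier results of these data known. Alternatives were DESeq2, limma voom, RLE or no scaling, 2 other filters, halved counts, each library left out and a letter block; counts of non-overlapping members and of interferon-induced genes under other settings were added after seeing the data. Fits were tested on simulated data. Software: pandas 2.3.3, numpy 2.4.6, matplotlib 3.10.9 and Python 3.11.15; DESeq2 1.42.0, limma 3.58.1, edgeR 4.0.16 and R 4.3.3.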

Additional observations from a re-analysis of the deposited data

Results flagged for a closer look

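No Schlafen member had a day 3 library that stood apart from the other four by Dixon's test. Of 23 items examined in this way (Schlafen genes and summed lists), 4 had such a library, and it was day 3 b each time; chance gives about 1 in 20. Day 3 b had summed inflammatory monocyte markers of 8765 CPM, against 4755 to 5338 CPM in the other day 3 libraries. Its summed neutrophil markers were at 3773 CPM, against 451 to 680 CPM in the others. Summed dendritic cell markers were at 159 CPM in day 3 b and 55.01 to 70.2 CPM in the others. Summed keratinocyte markers were at 27.7 CPM in day 3 b and 0.157 to 4.86 CPM in the others. Nearly all of the day 3 b value was Krt14 (25.2 CPM) and Krt5 (2.44 CPM), whereas Krt10 (0.0203 CPM) was at its lowest day 3 level there. Slfn2 and Slfn4 had their highest and Slfn5 its lowest day 3 level in this library. Without it the log2 fold changes were -0.68 for Slfn2, -1.94 for Slfn4 and -0.51 for Slfn5.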

How the results depend on the processing

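The number of genes called was 2, all lower at day 3, and depended strongly on the setting. It was 1021 with DESeq2, 825 with limma voom, 1347 with no filter on low counts, 146 with the stricter filter and 46 with halved counts, and 0 to 59 with each library left out. With RLE factors or library totals alone it was 2. On libraries a to c alone it was 0 by edgeR with the letter as a replicate block (1343 genes at an unadjusted p under 0.05) and 0 without the block (1660 genes). Same-lettered libraries did not deviate together (correlations 0.091, 0.0311 and -0.0483), so letters were not taken as pairs. The cause of these differences in count was not tested. Slfn1, Slfn2, Slfn4, Slfn5, Slfn8 and Slfn9 kept a log2 fold change below 0 under all 17 alternatives. Slfn3 changed sign to -0.20 with limma voom and ran from -0.029 (without day 3 a) to 1.07 with each library left out. Leaving out each library, the range was -2.06 to -1.77 for Slfn4, -1.13 to -0.79 for Slfn1, -0.68 to -0.41 for Slfn2, -0.89 to -0.51 for Slfn5, -1.25 to -0.90 for Slfn8 and -0.72 to -0.11 for Slfn9. On CPM without length, 2 members changed place at day 3 (Slfn4 and Slfn1) and 2 at day 1 (Slfn5 and Slfn8). Gli1 and most ligand genes were at or near the floor of 3 counts, where differences were not detectable.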
